A study of Mus musculus with 16 samples.

Results

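Serum amyloid and acute phase genes encode proteins, most of them plasma proteins, whose liver output changes during inflammation. The set described here holds 10 genes of the 19938 tested: the serum amyloid A genes Saa1, Saa2, Saa3 and Saa4, the lipocalin Lcn2, the haem and haemoglobin binders Hp and Hpx, the orosomucoid Orm2, the metalloreductase Steap4 and the pentraxin Apcs. The members were named by symbol, and each was measured by the single probe set that the platform annotation gives to that symbol alone.

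Transcripts were measured in whole liver of adult mice on Affymetrix MoGene 1.0 ST arrays, which read probes along the whole transcript, with 1 array per animal and 4 animals in each of 4 groups. The groups were Gli2 heterozygous null mice on high-fat diet (Het_HFD), Gli2 heterozygous null mice on control diet (Het_control), wild-type mice on high-fat diet (WT_HFD) and wild-type mice on control diet (WT_control), all kept on their diet for 12 weeks. Gli2 is a transcription factor of the hedgehog pathway, and the labels name no driver or tissue restriction for the null allele. The genotype field of the wild-type animals names Gli1, while the series text speaks of Gli2 only, and the sources used here give no strain, sex, exact age or diet composition. The series text counts 16 animals, but the sample titles carry a number, of unstated meaning, that 2 arrays share in each of the 4 groups. These arrays may not be independent, and p-values would be too small if such pairs were alike. The correlation estimated within title numbers was negative, at -0.372. The pair in Het_control includes array 2, which stood apart from the others as described below. A further number is shared across diets in wild type, by WT_control 1 and WT_HFD 2.

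The acute phase response is the change in plasma proteins made by hepatocytes when cytokines such as interleukin-6, interleukin-1 and tumour necrosis factor reach the liver. Serum amyloid A proteins travel on high-density lipoprotein and in the mouse are encoded by a gene cluster. Transcription factors of the C/EBP, STAT3 and NF-kB families drive many of these genes, and in fatty liver and obesity several of them are known to be raised.

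All values below are log2 expression levels made by the authors with RMA, so a difference of log2 levels is a log ratio and levels are compared within a gene only. Array Het_control 2 stood apart, with Pearson correlations of 0.961 to 0.979 with the others over all genes, against 0.99 to 0.997 among the remaining arrays. Its levels also spread less, with 1.95 between the quartiles, against 2.40 to 2.60 elsewhere, and the calls in heterozygotes and over both genotypes are given with and without it. Hepatocyte markers were bright in all groups, from Alb at a mean log2 level of 13.96 to Apob at 13.33, and the mean over the 8 markers lay between 13.69 and 13.77 in Het_HFD, 13.56 and 13.76 in Het_control, 13.63 and 13.73 in WT_HFD and 13.68 and 13.73 in WT_control. The Gli2 probe set read 7.46 to 7.61 in Het_HFD, 7.5 to 8.14 in Het_control, 7.4 to 7.57 in WT_HFD and 7.54 to 7.58 in WT_control, so it did not separate the genotypes. The sources used here do not say whether that probe set lies in the deleted sequence, so it is no check of the genotype labels.

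RefSeq's GRCm38.p6 promoter table, with 250 bases before and 50 after each transcription start, held 9 of the 10 members. The windows of the 4 serum amyloid genes, of Lcn2 and of Orm2 are shown, the first 4 as a gene cluster and the other two because their levels correlated with that of Saa2 within groups, as described further on. Each is printed 5′ to 3′ on the gene's own strand, with the C/EBP motif TTGCNNAA in capitals, searched on both strands.
Saa1, chr7:46742931-46743230, minus strand: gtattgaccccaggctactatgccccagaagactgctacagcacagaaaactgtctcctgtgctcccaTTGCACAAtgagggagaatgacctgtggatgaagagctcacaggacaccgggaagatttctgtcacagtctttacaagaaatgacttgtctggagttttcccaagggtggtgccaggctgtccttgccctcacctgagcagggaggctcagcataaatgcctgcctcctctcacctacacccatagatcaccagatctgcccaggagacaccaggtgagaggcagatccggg
Saa2, chr7:46751583-46751882, plus strand: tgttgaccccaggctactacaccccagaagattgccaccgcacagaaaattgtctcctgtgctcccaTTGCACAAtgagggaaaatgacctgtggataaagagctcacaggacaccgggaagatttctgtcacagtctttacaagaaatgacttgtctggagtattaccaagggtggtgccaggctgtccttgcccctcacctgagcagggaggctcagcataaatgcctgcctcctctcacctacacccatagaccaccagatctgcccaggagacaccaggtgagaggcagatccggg
Saa3, chr7:46715627-46715926, minus strand: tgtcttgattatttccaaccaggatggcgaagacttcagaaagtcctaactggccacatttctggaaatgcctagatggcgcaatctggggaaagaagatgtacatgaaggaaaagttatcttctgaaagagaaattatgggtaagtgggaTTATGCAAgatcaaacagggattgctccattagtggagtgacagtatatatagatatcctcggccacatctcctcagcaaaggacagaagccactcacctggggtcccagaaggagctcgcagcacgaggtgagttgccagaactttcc
Saa4, chr7:46732554-46732853, minus strand: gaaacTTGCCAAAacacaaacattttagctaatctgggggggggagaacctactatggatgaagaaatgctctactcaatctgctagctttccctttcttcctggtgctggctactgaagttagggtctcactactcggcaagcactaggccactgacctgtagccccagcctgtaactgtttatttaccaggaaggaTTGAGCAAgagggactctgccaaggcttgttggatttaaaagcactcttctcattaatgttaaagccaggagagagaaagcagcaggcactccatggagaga
Lcn2, chr2:32387690-32387989, minus strand: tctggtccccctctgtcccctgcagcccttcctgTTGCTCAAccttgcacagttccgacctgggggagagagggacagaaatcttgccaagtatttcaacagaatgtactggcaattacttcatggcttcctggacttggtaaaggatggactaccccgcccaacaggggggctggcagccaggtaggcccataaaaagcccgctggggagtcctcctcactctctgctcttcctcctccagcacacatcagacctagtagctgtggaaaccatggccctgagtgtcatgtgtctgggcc
Orm2, chr4:63362199-63362498, plus strand: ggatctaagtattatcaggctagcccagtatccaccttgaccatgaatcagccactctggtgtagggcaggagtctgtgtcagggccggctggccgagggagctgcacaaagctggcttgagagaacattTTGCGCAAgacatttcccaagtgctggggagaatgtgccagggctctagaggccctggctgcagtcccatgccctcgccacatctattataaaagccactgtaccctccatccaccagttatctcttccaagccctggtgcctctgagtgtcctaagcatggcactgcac

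The C/EBP motif was found in the windows of 8 of the 9 members, Apcs being the one without it, and in 10.8% of all 27025 promoters of the table. Hpx, whose level passed no test in any comparison, holds one too. The STAT motif TTCNNNGAA was found in 2 of the 9 members, Steap4 and Apcs, against 8.47% of all promoters. The NF-kB consensus was found in Steap4 alone of the 9 members, against 4.35% of all promoters. A match describes these letters in this window and does not show that a factor binds there.

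The 4 serum amyloid genes lie in 1 cluster on chromosome 7, which RefSeq orders Saa3, the long non-coding RNA Gm31882, Saa4, the pseudogene Saa-ps, Saa1 and Saa2. The windows of Saa1 and Saa2, which run in opposite directions from neighbouring starts, matched at 287 of 299 aligned bases (95.3% of the alignment). The other pairs of serum amyloid windows matched at 41.2% to 46.5%. Saa1 and Saa2 encode closely similar proteins, each symbol is listed as an older name of the other, and probes could read both transcripts, so their separate values are uncertain.

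Saa1, a main acute phase serum amyloid, had log2 levels of 7.78, 8.52, 8.83 and 7.80 in Het_HFD and 7.67, 7.27, 7.41 and 7.63 in Het_control. In wild-type mice the levels were 7.69, 7.47, 8.10 and 7.55 in WT_HFD and 6.93, 7.27, 6.34 and 6.84 in WT_control. In both genotypes all 4 high-fat animals lay above all 4 control animals, and in Het_HFD animals 2 and 3, which share a title number, lay well above the other two.

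Saa2, the partner acute phase serum amyloid, had levels of 10.44, 10.95, 11.43 and 10.36 in Het_HFD and 9.91, 9.21, 9.58 and 10.06 in Het_control. The levels were 10.17, 9.78, 10.85 and 10.29 in WT_HFD and 9.62, 9.78, 9.80 and 9.16 in WT_control. The diets did not overlap in heterozygotes, and in wild type 1 high-fat animal lay within the control range.

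Saa3, the serum amyloid that mouse macrophages and fat cells also make, had levels of 8.95, 9.81, 9.88 and 8.95 in Het_HFD and 8.98, 8.31, 8.47 and 9.05 in Het_control. The levels were 8.74, 8.64, 9.19 and 8.84 in WT_HFD and 8.17, 8.65, 8.54 and 8.49 in WT_control. The diets overlapped in both genotypes, and the 2 highest values of the 16 were again Het_HFD animals 2 and 3.

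Saa4, the constitutive serum amyloid of lipoprotein particles, had levels of 12.67, 12.68, 12.77 and 12.71 in Het_HFD and 12.18, 11.61, 12.01 and 12.63 in Het_control. The levels were 12.70, 12.61, 12.67 and 12.70 in WT_HFD and 12.12, 12.13, 12.56 and 12.26 in WT_control. The 8 high-fat animals lay close together and above the 8 control animals except that WT_HFD animal 2 lay below Het_control animal 4.

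Lcn2, a siderophore-binding lipocalin that withholds iron from bacteria, had levels of 11.06, 11.20, 11.95 and 10.83 in Het_HFD and 10.98, 10.29, 10.16 and 11.31 in Het_control. The levels were 10.66, 10.49, 11.31 and 10.82 in WT_HFD and 10.15, 10.27, 10.01 and 9.95 in WT_control. The diets were separate in wild type and overlapped in heterozygotes, where control animals 1 and 4 were high.

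Orm2, an acute phase carrier of lipophilic molecules, had levels of 10.74, 10.89, 11.38 and 10.85 in Het_HFD and 10.39, 8.95, 10.35 and 10.55 in Het_control. The levels were 10.48, 9.90, 10.82 and 10.57 in WT_HFD and 10.26, 9.85, 10.74 and 9.58 in WT_control. The diets were separate in heterozygotes, where Het_control animal 2 was by far the lowest, and overlapped in wild type.

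Steap4, a metalloreductase induced by tumour necrosis factor in mouse fat cells, had levels of 11.50, 11.56, 11.70 and 11.56 in Het_HFD and 11.08, 11.04, 11.44 and 11.52 in Het_control. The levels were 11.52, 11.41, 11.57 and 11.76 in WT_HFD and 11.23, 11.22, 11.12 and 11.21 in WT_control. The diets were separate in wild type, and in heterozygotes Het_control animal 4 lay above the lowest Het_HFD animal.

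Apcs encodes serum amyloid P, a pentraxin and an acute phase protein in mice. Its levels were 10.63, 11.06, 10.71 and 10.80 in Het_HFD and 11.33, 10.85, 11.34 and 11.22 in Het_control. In WT_HFD they were 11.16, 11.32, 11.02 and 10.996, and in WT_control 11.21, 11.22, 10.95 and 11.18. The diets overlapped in both genotypes, and in heterozygotes 3 of the 4 control animals lay above all 4 high-fat animals. Hp, which binds free haemoglobin, spanned 13.24 to 13.39 in Het_HFD, 13.15 to 13.46 in Het_control, 13.19 to 13.34 in WT_HFD and 12.98 to 13.30 in WT_control. Hpx, which binds free haem, spanned 13.58 to 13.67 in Het_HFD, 13.62 to 13.69 in Het_control, 13.53 to 13.61 in WT_HFD and 13.55 to 13.66 in WT_control. The ranges of Hp and Hpx overlapped between every pair of neighbouring groups in the order of their means.

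**Figure D1:**
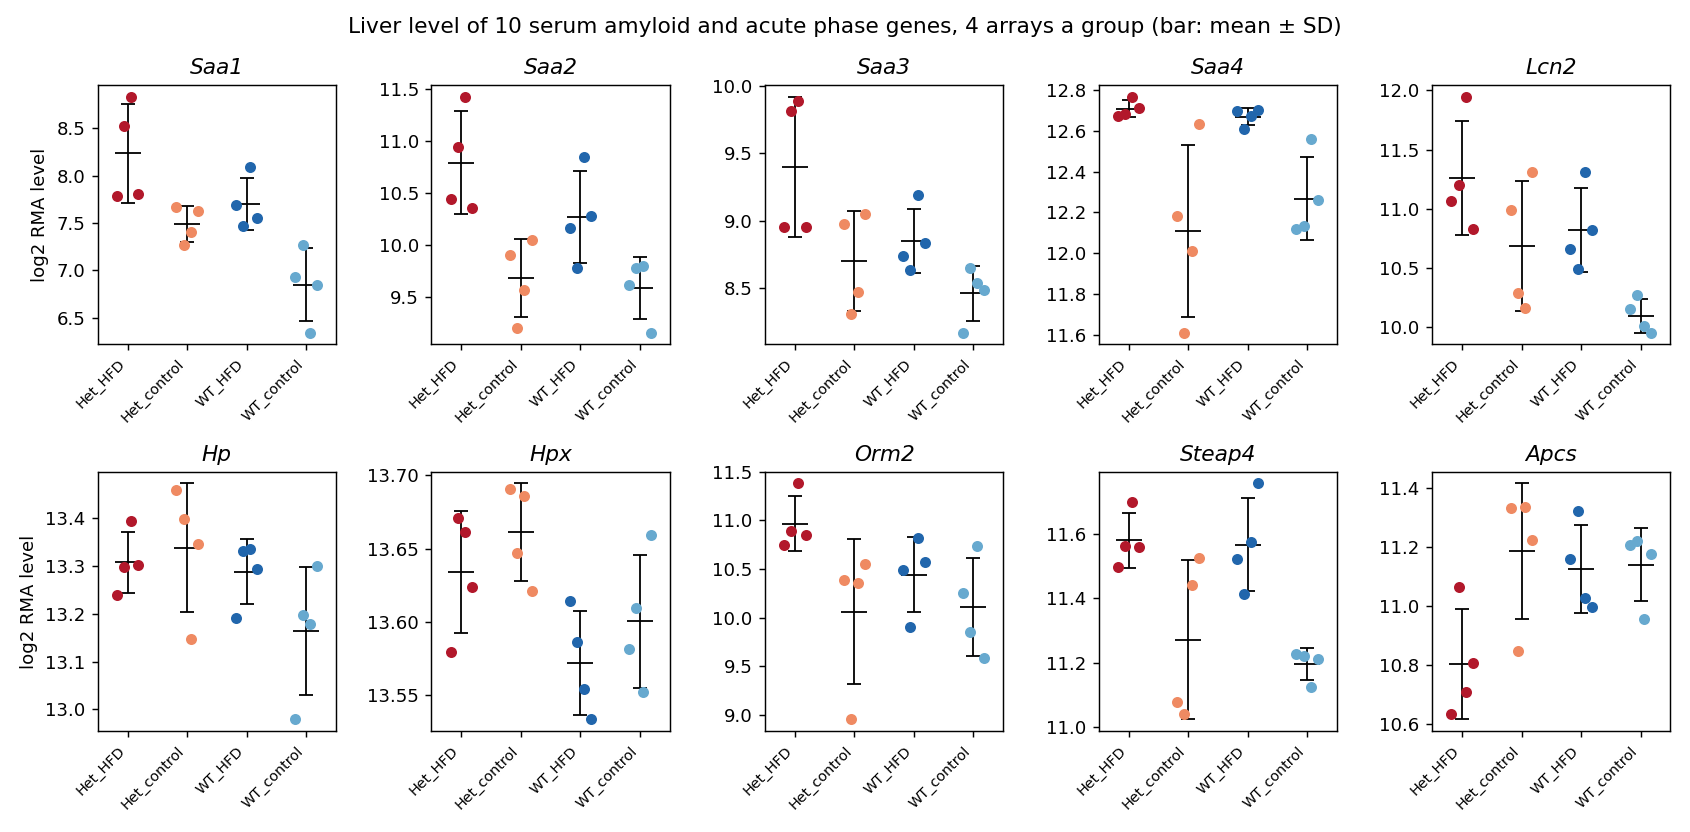
Log2 RMA level of each of the 10 genes (vertical axis, its own range per panel) in the 4 groups, with 1 point per animal and a bar for the mean ± SD of 4 animals. Saa1 and Saa4 lie higher on high-fat diet in both genotypes, while Hp and Hpx overlap between neighbouring groups in the order of their means.

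Ordered by group mean, Saa1, Saa2, Saa3, Lcn2 and Steap4 shared 1 order, Het_HFD, WT_HFD, Het_control and WT_control. Saa1 averaged 8.24 ± 0.53, 7.70 ± 0.28, 7.49 ± 0.19 and 6.85 ± 0.39 in that order (SD, n = 4 each). Neighbours in the order overlapped in their ranges for all 10 genes, with the single exception of Saa4, whose WT_HFD range lay above its WT_control range.

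High-fat feeding in heterozygotes went with higher Saa2 and Saa4. Saa2 averaged 10.79 ± 0.50 in Het_HFD and 9.69 ± 0.38 in Het_control (SD, n = 4 each), a log2 difference of 1.11 (SE 0.25, 2.15-fold, limma adjusted p = 0.0372). Saa4 averaged 12.71 ± 0.04 in Het_HFD and 12.11 ± 0.42 in Het_control (SD, n = 4 each), a difference of 0.60 (SE 0.15, 1.51-fold, limma adjusted p = 0.0473). These 2 of 10 members stood beside 1.5% of all genes called higher and 0.712% called lower, and 0 members were called lower. After a further quantile normalization the calls over all genes were split 55% higher, against 67.9% without it, and Apcs was called lower (-0.52, limma adjusted p = 0.0285), as it was with array weights and with the title number as a block.

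The other members did not pass at adjusted p under 0.05 in heterozygotes. The differences were 0.74 for Saa1 (adjusted p = 0.0706), 0.70 for Saa3 (0.0749), 0.91 for Orm2 (0.09), 0.57 for Lcn2 (0.138) and 0.31 for Steap4 (0.0839). Apcs differed by -0.38 (SE 0.12, limma adjusted p = 0.0706), Hp by -0.03 (0.788) and Hpx by -0.03 (0.695). The median difference of the 10 members was 0.59, against -0.05 over all genes tested. In 4 of 10 members, Saa1, Saa2, Saa4 and Orm2, every Het_HFD animal lay above every Het_control animal, as in 6.58% of all genes.

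Both heterozygote calls depended on which arrays entered. Without Het_control 2 the difference was 0.95 for Saa2 (limma adjusted p = 0.0705) and 0.43 for Saa4 (0.0751), neither called, while Apcs became called lower at -0.49 (0.0321). In that fit 0.873% of all genes were called. Without Het_control 4, whose Saa2, Saa4 and Lcn2 were the highest of its group, 7 members were called, while 17.3% of all genes were called, against 2.22% with all arrays, and with other single arrays left out the count lay between 0 and 2. The Saa4 call held only without Het_control 4 or WT_control 3, and the Saa2 call was lost without any one of Het_HFD 2, 3 or 4, Het_control 1, 2 or 3, WT_HFD 1 or WT_control 1 or 2. Array 2 of that group had the highest level of its group in no member, and array 4 in 6 of the 10.

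In wild type 0 of 10 members were called for diet, as were 0% of all genes. The differences at an unadjusted limma p under 0.05 were 0.86 for Saa1 (SE 0.22, adjusted p = 0.364), 0.73 for Lcn2 (0.593), 0.68 for Saa2 (0.61), 0.40 for Saa4 (0.622) and 0.37 for Steap4 (0.395), so 5 of 10 members met it, against 6.43% of all genes. Saa1, Saa4, Lcn2 and Steap4 did not overlap between WT_HFD and WT_control, which held for 3.51% of all genes. For these 4 the two-sided exact permutation p was 0.0286, the smallest that 4 against 4 animals can give. Groups that do not overlap always give this value, so it only restates the separation. The median difference of the members was 0.38, against -0.01 over all genes.

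Averaged over both genotypes, 4 of 10 members rose with the high-fat diet: Saa2, Saa1, Saa4 and Steap4. Saa2 differed by 0.89 (SE 0.18, 1.86-fold, limma adjusted p = 0.0199), Saa1 by 0.80 (SE 0.16, 1.74-fold, 0.0205), Saa4 by 0.50 (SE 0.11, 1.41-fold, 0.0243) and Steap4 by 0.34 (SE 0.07, 1.26-fold, 0.0246). Over all genes 1.35% were called higher and 0.512% lower, and 0 members were called lower. After a further quantile normalization the calls over all genes were split 56.6% higher, against 72.5% without it. Lcn2 differed by 0.65 (adjusted p = 0.0666), Saa3 by 0.54 (0.0723), Orm2 by 0.62 (0.116) and Apcs by -0.20 (0.154), and none of these passed. Saa1 and Saa2 were called without each of the 16 arrays in turn, with adjusted p up to 0.05 for Saa1 and 0.0477 for Saa2, whereas Saa4 and Steap4 were called in 8 of the 16 such fits each. Both lost their call without Het_HFD 3 or 4, WT_HFD 3 or 4, or WT_control 1, 2 or 4, and in addition Saa4 lost it without Het_control 3 and Steap4 without Het_HFD 2. Without Het_control 2 alone the 4 higher calls stayed and Apcs was called lower at -0.25 (limma adjusted p = 0.0463), while 3.57% of all genes were called. Without Het_control 4 alone 6 members were called, with 8.8% of all genes called. With all arrays 1.86% of all genes were called.

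The diet differences of the 2 genotypes were set against each other by the interaction term, which called 0 of 10 members, as it called 0% of all genes. Apcs alone had an unadjusted p under 0.05, with a heterozygote diet difference lower than the wild-type one by 0.37 (SE 0.16, limma adjusted p = 0.588), where 8.13% of all genes met that threshold. For Saa2 the interaction was 0.43 with a 95% interval of -0.32 to 1.17, and for Saa1 -0.11 with an interval of -0.78 to 0.55. These intervals are wide, so the data do not show that the genotypes responded alike.

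**Figure D2:**
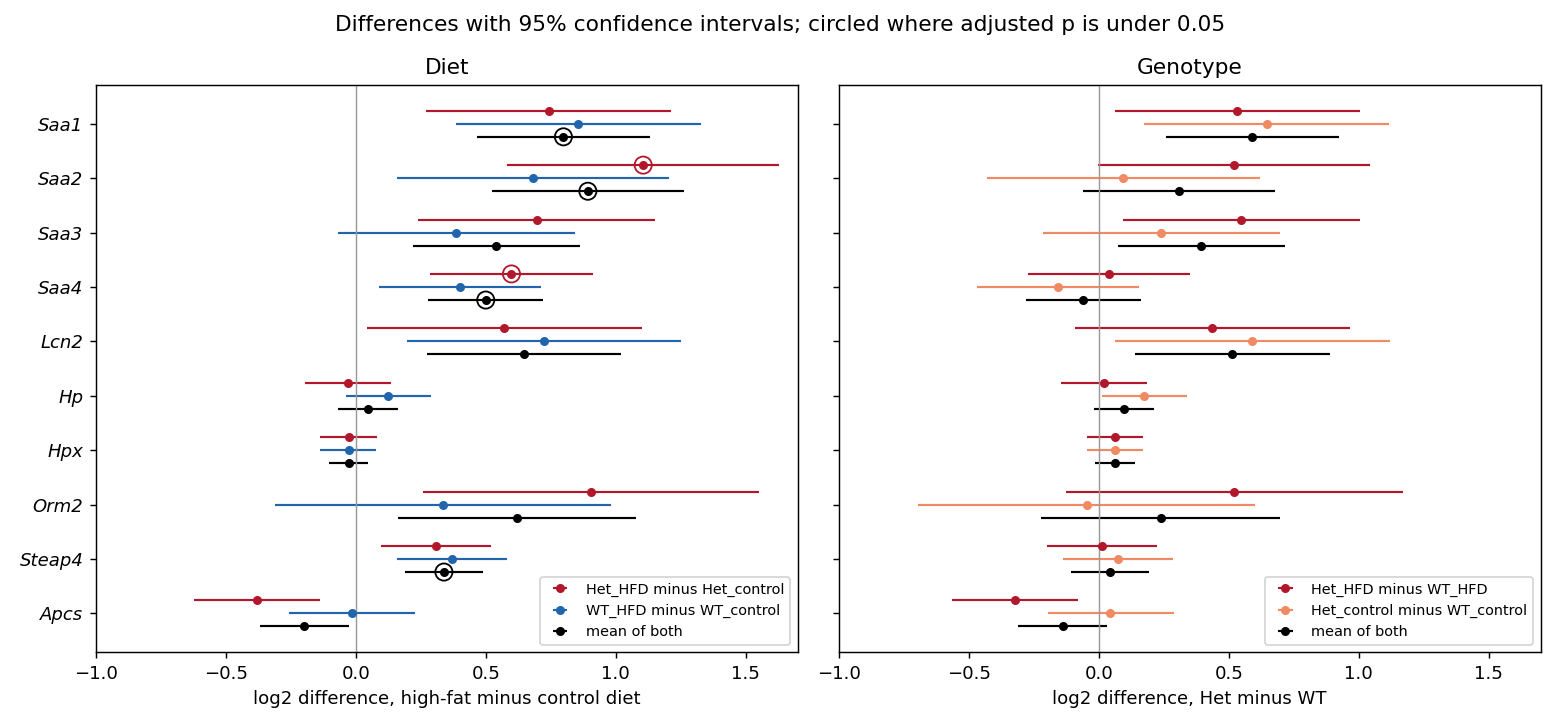
Log2 differences for diet (left, high-fat minus control) and genotype (right, Het minus WT) of the 10 genes, as points with 95% confidence intervals from the limma fit, circled where adjusted p was under 0.05. Saa2 and Saa4 are circled for diet in heterozygotes, and Saa1, Saa2, Saa4 and Steap4 for the mean of both genotypes, while no genotype difference is circled.

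Genotype called 0 of 10 members on either diet, with or without Het_control 2. On high-fat diet, where 0.00502% of all genes were called, Saa3 was 0.55 higher in Het_HFD than in WT_HFD (SE 0.22, unadjusted p = 0.021, limma adjusted p = 1), Saa1 0.53 higher (SE 0.22) and Apcs differed by -0.32 (SE 0.12). Those 3 of 10 members at an unadjusted p under 0.05 stood beside 3.57% of all genes. On control diet 0% of all genes were called, and Saa1 was 0.65 higher in Het_control than in WT_control (SE 0.22, limma adjusted p = 0.285), Lcn2 0.59 higher (SE 0.25, 0.302) and Hp 0.17 higher (SE 0.08, 0.307). Those 3 of 10 stood beside 15.7% of all genes at that threshold. Averaged over diets, where 0.00502% of all genes were called, Saa1 was 0.59 higher in heterozygotes (SE 0.16, limma adjusted p = 0.573).

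Within groups, some members among Saa1, Saa2, Saa3, Lcn2 and Orm2 varied together from animal to animal. After subtracting each group's mean from its 4 arrays, 5 of 45 pairs of members passed by Pearson's r, with permutation p adjusted by Benjamini-Hochberg over the pairs, and all 5 were positive. The share over all pairs of genes was not computed, so the count does not show a trait particular to the members. Genes outside the set, picked as most like a member, reached similar r within groups, such as 0.82 for Lcn2 with Abhd3. By Spearman's rho 6 passed, those 5 and Saa4 with Orm2 (r = 0.74, rho = 0.72, adjusted permutation p = 0.0637 and 0.037). For each pair r was also taken without the 2 arrays farthest from the median of the gene named first. For Saa4 with Orm2 it was then 0.55. No pair with Hp, Hpx, Steap4 or Apcs passed. Saa2 and Lcn2 had Pearson r = 0.87 and Spearman rho = 0.89 over 16 arrays (adjusted permutation p = 0.00517 and 0.00765). Their r was 0.79 without the 2 arrays farthest from the Saa2 median. Saa2 and Orm2 had r = 0.77 and rho = 0.82 (0.00517 and 0.00765), and r = 0.76 without those 2 arrays. Saa2 and Saa3 had r = 0.84 and rho = 0.82 (0.0144 and 0.0222), and r = 0.78 without them.

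Saa3 and Lcn2 had r = 0.81 and rho = 0.81 (adjusted permutation p = 0.0139 and 0.037), and r = 0.74 without the 2 arrays farthest from the Saa3 median. Saa1 and Lcn2 had r = 0.73 and rho = 0.76 (0.0078 and 0.0136), and r = 0.70 without the 2 arrays farthest from the Saa1 median. Without Het_control 2 these 5 pairs had r between 0.72 and 0.86. With arrays of 1 group that share a title number averaged, which left 12 units, they had r between 0.69 and 0.88, a setting chosen after seeing the data. Het_HFD animal 3 held the highest value of its group in 8 of the 10 members, and WT_HFD animal 3 in 6. These members were read on the same arrays, and no cause of the shared variation was tested.

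**Figure D3:**
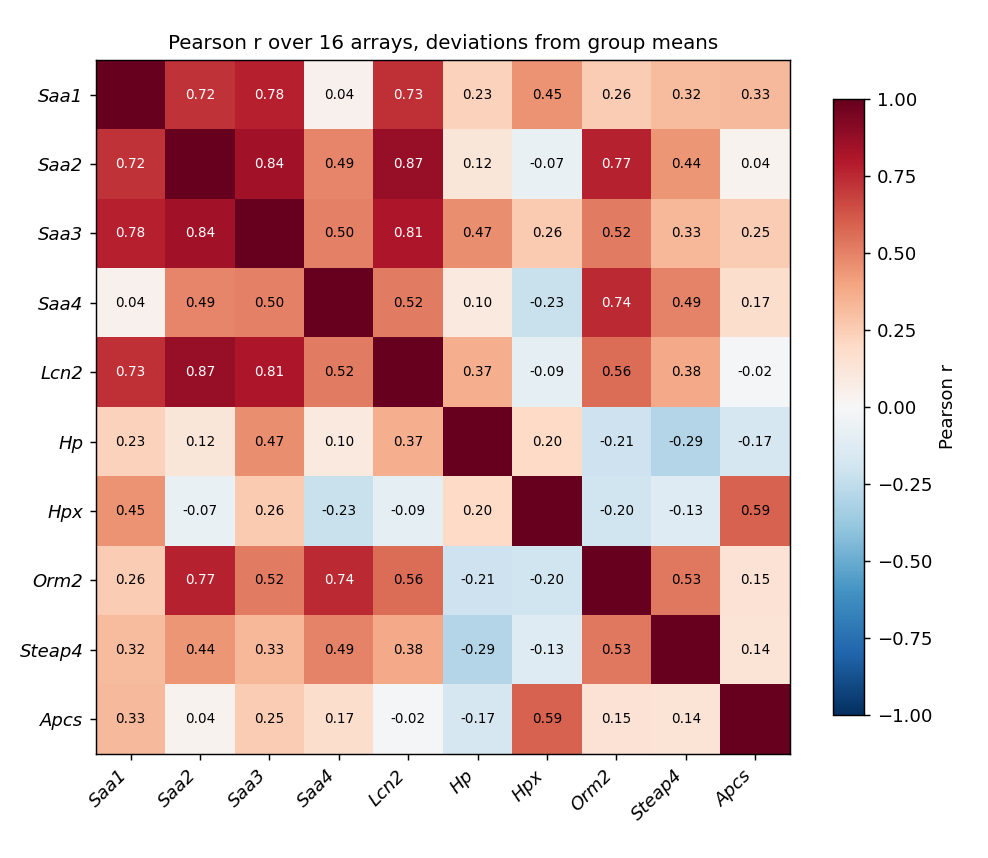
Pearson correlation of each pair of the 10 genes over 16 arrays, after subtracting each group's mean (colour and printed value). The block of Saa1, Saa2, Saa3 and Lcn2 runs from 0.72 to 0.87, while no pair with Hp or Hpx exceeds 0.59.

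The 3 genes most like a member in level over the 16 arrays were found for Saa1, Lcn2 and Steap4, as a description. For Saa1 they were Fam126a (r = 0.84), Ccdc107 (0.84) and Mcm3ap (0.83). For Lcn2 they were Fam126a (0.87), Mcm3ap (0.81) and Abhd3 (0.80), and for Steap4 Hspa4l (0.94), Wdr5 (0.92) and Mccc2 (0.90). Over these 9 pairs r lay between 0.82 and 0.94 without Het_control 2, and between 0.49 and 0.91 after subtracting the group means.

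The wider acute phase response was read from gene lists, whose results are given as counts and medians. Of 27 other positive acute phase genes measured, such as fibrinogens, C4b and hepcidin, 0 were called in either direction for diet in heterozygotes, with a median difference of 0.015, against -0.05 over all genes. Hmox1, haem oxygenase, differed by 0.41 (limma adjusted p = 0.0606), and Itih3 differed by -0.23 (0.0723). In value 15 of the 27 were higher and 12 lower. Orm3 differed by 0.99 (SE 0.38, limma adjusted p = 0.112), a size like that of several members, and was not called. Of 12 negative acute phase genes, such as Alb and Ttr, 0 were called, and Apom differed by -0.20 (adjusted p = 0.0944) and Serpina6 by 0.17 (0.143). In wild type and over both genotypes neither list had a call.

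Among 19 genes of interleukin-6 family signalling, 0 were called, and Lifr, a receptor chain of that family, differed by -0.26 (limma adjusted p = 0.0687) and Cebpd, a C/EBP factor, by -0.23 (0.0937). Among 25 genes of interleukin-1, tumour necrosis factor and NF-kB signalling, 3 were called higher for diet in heterozygotes and 0 lower. Over all genes 1.5% were called higher and 0.712% lower. Ly96, the partner of Toll-like receptor 4, averaged 10.15 in Het_HFD and 8.11 in Het_control (difference 2.04, SE 0.45, limma adjusted p = 0.0368). In wild type Ly96 averaged 9.64 in WT_HFD and 9.50 in WT_control, so Het_control was the lowest group. Its Het_control values spanned 6.19, in animal 2, to 9.77, and without that array the difference was 1.40 (limma adjusted p = 0.0266). Il1b, the cytokine interleukin-1 beta, differed by 0.58 (0.0468) and Nfkbib, an inhibitor of NF-kB, by 0.53 (0.0312). Nfkbib averaged 11.378 in Het_HFD, 10.846 in Het_control, 11.265 in WT_HFD and 11.212 in WT_control. In the same order Il1b averaged 8.456, 7.879, 7.832 and 7.855. With single arrays left out, the call held in 7 of 16 fits for Ly96, 3 for Il1b and 11 for Nfkbib. In wild type 0 of these 25 were called, and over both genotypes 0, or 3 without Het_control 2. Leaving out that array raised the share of all genes called over both genotypes from 1.86% to 3.57%.

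Of 14 receptors and binding partners of the member proteins, 2 were called higher for diet in heterozygotes and 0 lower. Over all genes 1.5% were called higher. Cd36, a scavenger receptor that binds serum amyloid A, averaged 11.56 in Het_HFD, 10.12 in Het_control, 11.16 in WT_HFD and 10.97 in WT_control. Its difference in heterozygotes was 1.44 (SE 0.26, limma adjusted p = 0.0185). Cd36 also passed over both genotypes (0.81, limma adjusted p = 0.0368), where 1.35% of all genes were called higher. With single arrays left out, that second call held in 6 of 16 fits and the one in heterozygotes in 14. Tfrc, the transferrin receptor, differed by 0.48 (SE 0.11, adjusted p = 0.0416), a call that held in 7 of 16 such fits. Tfrc averaged 8.615 in Het_HFD, 8.131 in Het_control, 8.159 in WT_HFD and 8.111 in WT_control. Without Het_control 2 the calls in heterozygotes were 2 of 25 in the NF-kB list and 1 of 14 here, with 0.873% of all genes called.

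**Figure D4:**
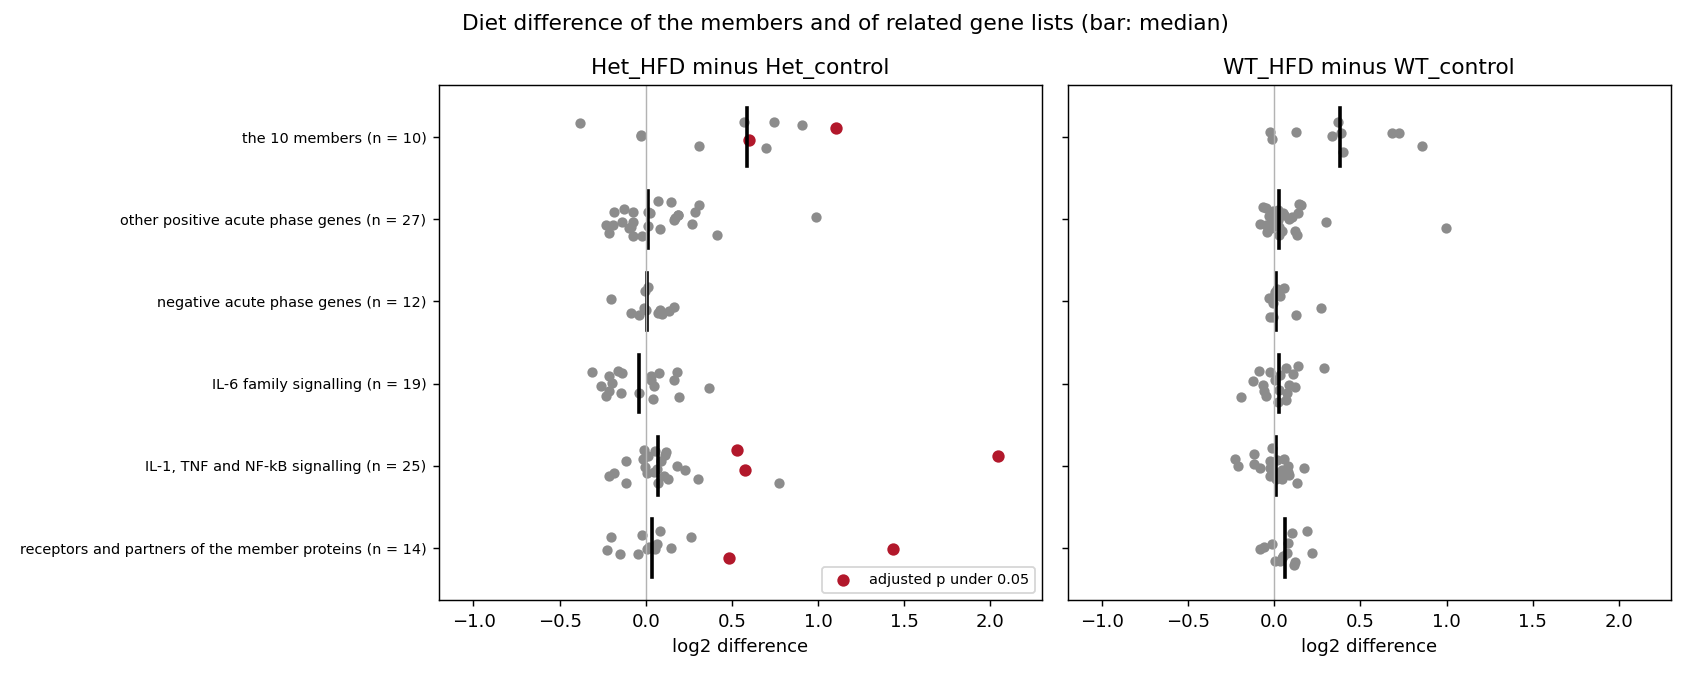
Log2 diet differences of the 10 members and of 5 related gene lists in heterozygotes (left) and wild type (right), with 1 point per gene, red where limma adjusted p was under 0.05 and a bar for the median. Red points appear in heterozygotes only among the members, the NF-kB list and the receptor list, and none appear in wild type.

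Kupffer cells and macrophages make Saa3 in mice, though Saa3 was not called for diet in heterozygotes. Of their 12 markers, 7 were called higher in that comparison, against 1.5% of all genes, with a median difference of 0.55. Csf1r, C1qb and Cd68 were among these 7, while 0 were called in wild type. The median marker difference of Het_control from WT_control was -0.34, and of Het_HFD from WT_HFD 0.30, with 0 called in either. The mean log2 level over the 12 markers lay between 10.41 and 10.78 in Het_HFD, 9.83 and 10.32 in Het_control, 10.01 and 10.61 in WT_HFD and 10.28 and 10.42 in WT_control. Without Het_control 2 the count in heterozygotes was 3 of 12, with a median of 0.47. In that fit 0.873% of all genes were called in either direction, against 2.22% with all arrays. The neutrophil, adipocyte, endothelial, pancreas, bile duct and hepatocyte lists had 0 calls in heterozygotes, and the stellate list had 1 of 7, Lrat. Of all 16 arrays, Het_control 2 had the highest mean over the dim neutrophil (7.27), adipocyte (7.61), pancreas (8.19) and bile duct (8.16) lists. It had the lowest mean over the bright hepatocyte (13.56), macrophage (9.83), endothelial (9.86) and stellate (9.84) lists. In whole liver, fewer cells of a type and less RNA per cell cannot be told apart, and the part of these cells in the levels of the 10 genes was not tested.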

How the data were processed

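Total RNA from 16 livers was hybridised to 1 array each. The authors deposited a log2 level for every probe set. Per the submitters' processing notes, they used Affymetrix Expression Console and RMA, without versions. RMA normalizes probe intensities between arrays before it combines probes, so a shift shared by all transcripts could be removed, though the deposited levels of 1 array kept a narrower range. Of 35556 probe sets, 21789 had 1 gene symbol, 1621 several and 12146 none, and the first kind entered the tests. Entrez numbers were used to bring symbols up to date with RefSeq GRCm38.p6 (19856 of 19938 genes matched). A gene with several probe sets (998 genes) was represented by the brightest.

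A single limma fit (version 3.58.1, under R 4.3.3, lmFit then eBayes) gave each of the 4 groups a mean over all 16 arrays, with Benjamini-Hochberg adjustment over 19938 genes and calls at adjusted p under 0.05. On simulated shifts of the real arrays the fit was checked before use. Animals are the replicates, and their number limits the precision. Replicate numbers only name animals, in record order. The members, gene lists, marker lists and motifs were chosen with earlier results of these data known. The genes named were all members, the called genes of each list (otherwise the 2 with the smallest p) and the 3 genes most like Saa1, Lcn2 and Steap4. Called markers were given as counts. Their examples, and Orm3, were chosen after their values were seen. Alternatives were a second quantile normalization, all probe sets, the mean of a gene's probe sets, genes above the median level, trend and robust moderation, array weights, a random block on the number in the sample title, only the arrays compared, each array left out, and exact permutation. List and marker counts without Het_control 2, and correlations with arrays of a shared title number averaged, were added after seeing the data.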

Additional observations from a re-analysis of the deposited data

Results flagged for a closer look

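Of 84 combinations of gene and group, 6 had 1 animal whose gap to the nearest other exceeded Dixon's 95% critical share of the group's range, where chance gives about 1 in 20. Orm2 in Het_control animal 2 was at a log2 level of 8.95, far below the other animals of its group. In WT_control animal 3, Steap4 was at 11.12 and Apcs at 10.95, both the lowest of their group, and Nfkbib was at 11.30, the highest of its group. Itih3 in WT_control animal 1 was at 12.83, and Cebpd in Het_HFD animal 3 was at 7.21. No member's diet difference passed the test of a difference between genotypes.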

How the results depend on the processing

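The number of members called for diet in heterozygotes was 2, and it was 0 with all probe sets tested, 0 with only the arrays of the 2 groups, 8 with a random block on title numbers, 4 by the exact permutation test without adjustment, and 0 to 7 with single arrays left out. In wild type it was 0, against 2 with array weights, where 1.1% of all genes were called, against 0% without them. The wild-type count was 4 by the exact permutation test and 0 to 0 with single arrays left out. Under the permutation test the counts were the members whose 2 groups did not overlap. Over all genes 6.58% lay apart in this way, higher on high-fat diet, in heterozygotes and 3.51% in wild type. Over both genotypes it was 4, with 1.86% of all genes called. It was 0 with all probe sets (0.411% of them called) and 7 with array weights (10.6% of all genes). It was 7 with the random block (18.6% of all genes) and 2 to 6 with single arrays left out (0.522% to 8.8% of all genes). The random block had a correlation of -0.372 within title numbers, and it called 34.8% of all genes in heterozygotes, against 2.22% without it. In heterozygotes 0.0351% of all genes were called with only the 2 groups' arrays and 5.35% with array weights. With all probe sets tested 0.267% of them were called, and with single arrays left out 0.226% to 17.3% of all genes. For genotype and the interaction 0 members were called under every setting. No called difference changed sign, and 46 of 1683 member differences did, all uncalled. With single arrays left out these lay between -0.093 and 0.011 (Hp) for diet in heterozygotes, between -0.079 and 0.029 (Apcs) for diet in wild type, between -0.012 and 0.043 (Hp) and -0.039 and 0.076 (Steap4) for genotype on high-fat diet, between -0.048 and 0.254 (Saa2), -0.332 and 0.007 (Saa4), -0.221 and 0.323 (Orm2), -0.01 and 0.151 (Steap4) and -0.016 and 0.157 (Apcs) for genotype on control diet, between -0.146 and 0.023 (Saa4) for genotype over both diets, and between -0.313 and 0.055 (Saa1), -0.382 and 0.054 (Lcn2), -0.019 and 0.019 (Hpx) and -0.138 and 0.023 (Steap4) for the interaction. Array weights gave 0.005 for Hp (diet, heterozygotes), 0.002 for Saa4 and 0.37 for Orm2 (genotype, control diet), 0.018 for Saa4 (genotype, both diets) and -0.024 for Hpx (interaction). The random block gave -0.008 for Apcs (genotype, control diet) and 0.027 for Saa1 (interaction), and a further quantile normalization gave 0.007 for Saa4 (genotype, both diets) and -0.037 for Hpx (interaction). The cause of these changes was not tested, except that testing all probe sets adjusts over more tests and leaving out arrays lowers their number. No paired analysis was possible because the replicate numbers only name the records and pair no animals. Dim probe sets and 4 animals a group limit what differences could be detected. Hp and Hpx lay at the bright end, at percentiles 99.56 and 99.83 of the mean level over all genes. Some genes of the acute phase lists were as bright, such as Fgg at a mean of 13.66. How well the arrays resolve differences at such levels was not tested.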
